A study of Mus musculus with 3 samples.

Results

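The D-type cyclins Ccnd1, Ccnd2 and Ccnd3, their partner kinases Cdk4 and Cdk6, the Cip/Kip inhibitors Cdkn1a (p21), Cdkn1b (p27) and Cdkn1c (p57) and the INK4 inhibitor Cdkn2c (p18) were followed across the cell classes of the mouse uterus in early pregnancy. They were chosen by gene symbol, and all 9 were found among the 32287 features of the count matrix, 1 feature each. Of 3 single-cell samples in the series, the one analysed was whole uterus taken at pregnancy day 7.5 from females housed to 8 weeks of age and mated with stud males, and its labels give no genotype. The features added to the reference for sfGFP-Myc and iCre had 25 and 1 UMIs in all its barcodes. The other 2, Prl8a2icre/+ Sun1-GFPLsL/+ and Sun1-GFPLsL/+, are not analysed here. The library was 1 sample with no replicate, so cells are described and no test between animals was possible. All intervals are exact, at 95%, and speak of counting error alone.

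D-type cyclins accumulate when growth signals reach a cell, bind Cdk4 or Cdk6, and together phosphorylate the retinoblastoma protein, which releases E2F factors and opens the way into S phase. INK4 proteins hold Cdk4 and Cdk6 away from the cyclins, whereas Cip/Kip proteins bind cyclin and kinase complexes and mainly restrain Cdk2. In the mouse uterus this machinery is known for the decidual reaction, in which stromal cells proliferate, differentiate around the implanted embryo and often become polyploid, and cyclin D3 has been linked to that step.

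In all, 16848794 UMIs (unique molecular identifiers, 1 per captured transcript) fell in 2775 barcodes. Of these 1812 passed the filters, at a median of 4509.5 UMIs per cell. Clustering without the 9 genes gave 20 clusters, 19 of which fell into 10 marker-named classes, called "-like" because the names were rebuilt from markers. They were undifferentiated stroma-like (416 cells), epithelium-like (374), NK and innate lymphoid-like (312), mononuclear phagocyte-like (271), decidual stroma-like (149), mesothelium-like (88), pericyte-like (35), endothelium-like (67), B cell-like (23) and T cell-like cells (42). The decidual class joined cluster 1 (77 cells, led by genes such as Tdo2, Dio3 and Bmp2) and cluster 17 (72 cells, led by Rbp4, Cyp26b1 and Kcna1). Cluster 17 had none of the 8 decidual markers among its 10 leading genes and 1 marker of the embryonic endoderm set, Rbp4, so the decidual clusters are given by number beside the class. The other endoderm markers Afp, Ttr, Apoa1, Apom, Hnf4a and Gata4 had 0 UMIs in both clusters, and Sox17 had 1 UMI in cluster 1 and 0 in cluster 17. The decidual marker Tdo2 stood at 2889 CPM (UMIs scaled to 1e+06 per group) in cluster 1, 1414 in cluster 17, and 35.5 and 27.6 in the undifferentiated clusters 5 and 6. Gja1 was likewise highest in cluster 1 (1194 CPM) and then cluster 17 (471), against 145 and 300, as was Dio3 (854 and 34.7, against 2.96 and 4.19). Cdh11, Htra1 and Cebpb were lower in cluster 17 (929, 15.2 and 97.7 CPM) than in cluster 5 (1935, 47.3 and 157) and cluster 6 (2087, 117 and 122). In cluster 1 Cdh11 (243 CPM) and Htra1 (5.08) were lower still, while Cebpb (198) was highest there. The 8 decidual markers summed to 5448 CPM in cluster 1, 2982 in cluster 17, 2340 in cluster 5 and 2661 in cluster 6.

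The genes lie apart in the genome, in coordinates of GENCODE M21 on GRCm38. Ccnd1 and Cdkn1c are both on chromosome 7 (144929931 to 144939925 and 143458339 to 143461050), Ccnd2 and Cdkn1b on chromosome 6 (127125162 to 127152193 and 134920401 to 134925513), and Ccnd3 and Cdkn1a on chromosome 17 (47505051 to 47599691 and 29090976 to 29100727). Cdk4 is on chromosome 10 (127063534 to 127067920), Cdk6 on chromosome 5 (3341485 to 3531008) and Cdkn2c on chromosome 4 (109660876 to 109667189). Other annotated genes overlap 7 of the 9 on the opposite strand, among them LTO1 at Ccnd1, Bysl at Ccnd3 and Tspan31 at Cdk4. The sources used here do not give the strand setting of the counting, so reads of these partners could be mixed in.

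Promoter windows (250 bases before to 50 after a start, RefSeq, GRCm38.p6) were at hand for 6 of the 9 genes. The 4 shown belong to the genes with a window that met the size rule between the NK-like clusters below, with motif letters in capitals and the upstream start taken where a gene has several. Both strands were searched for 6 motifs, given with their share of 32851 windows of this length. The GC box was GGGCGG (35.7%) and the TATA box was TATAAA (13.6%). The cAMP response element was TGACGTCA (1.79%) and the E-box was CACGTG (7.15%). The E2F motif was TTTCCCGC or else TTTGGCGC (1.56%). The last was the spaced pair of core bases of a p53 site (0.712%). The p53 pattern was added after the Cdkn1a window had been seen.

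Cdk4 (chr10:127063285-127063584, + strand): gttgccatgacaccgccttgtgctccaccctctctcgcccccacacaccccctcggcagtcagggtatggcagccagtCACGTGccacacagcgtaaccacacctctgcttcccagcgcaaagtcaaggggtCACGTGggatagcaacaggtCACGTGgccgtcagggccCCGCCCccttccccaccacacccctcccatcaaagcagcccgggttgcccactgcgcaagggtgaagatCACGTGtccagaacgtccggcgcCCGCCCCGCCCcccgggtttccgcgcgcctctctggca
Cdk6 (chr5:3343643-3343942, + strand): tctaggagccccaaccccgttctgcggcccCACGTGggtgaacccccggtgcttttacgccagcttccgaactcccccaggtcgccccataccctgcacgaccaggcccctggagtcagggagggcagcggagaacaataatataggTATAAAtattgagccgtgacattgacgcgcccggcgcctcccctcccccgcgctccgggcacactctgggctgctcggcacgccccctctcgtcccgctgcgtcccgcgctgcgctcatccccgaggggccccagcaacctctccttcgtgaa
Cdkn1a (chr17:29090729-29091028, + strand): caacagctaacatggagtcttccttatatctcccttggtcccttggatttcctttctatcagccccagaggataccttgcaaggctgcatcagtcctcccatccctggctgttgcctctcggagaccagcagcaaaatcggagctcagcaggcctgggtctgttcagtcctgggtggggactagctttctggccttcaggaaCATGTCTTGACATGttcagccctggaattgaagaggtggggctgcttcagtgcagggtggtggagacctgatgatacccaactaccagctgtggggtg
Cdkn1b (chr6:134920151-134920450, + strand): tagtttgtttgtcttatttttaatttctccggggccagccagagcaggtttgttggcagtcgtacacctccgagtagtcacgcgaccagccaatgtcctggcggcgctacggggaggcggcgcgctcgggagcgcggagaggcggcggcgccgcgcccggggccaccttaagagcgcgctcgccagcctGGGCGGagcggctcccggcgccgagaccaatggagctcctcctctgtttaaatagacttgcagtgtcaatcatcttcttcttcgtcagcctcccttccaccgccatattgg

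The Cdk4 window held 4 E-boxes and 3 GC boxes, of which 2 overlap by a base. The Cdk6 window held 1 E-box and 1 TATA box, and the Cdkn1b window 1 GC box. The Cdkn1a window shown held the spaced p53 cores once and none of the other motifs. The window at the downstream Cdkn1a start, not shown, held 2 GC boxes and 0 p53 cores. These are letter matches only.

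The D-type cyclins Ccnd1 and Ccnd2 had the widest range between classes among the 8 genes with UMIs in every class. Ccnd1 was high in the vessel, epithelium and phagocyte classes. Its level was 548 CPM (486 to 616) in endothelium-like cells, 487 (405 to 581) in pericyte-like cells, 357 (341 to 373) in epithelium and 253 (226 to 283) in phagocytes. In the other 6 classes it was between 5.51 CPM in NK-like cells and 45.9 in B cell-like cells, so no interval of the upper 4 classes overlapped one of the lower 6. In both stromal classes Ccnd1 was near the bottom, at 9.69 CPM in decidual and 11.1 in undifferentiated cells. The level in NK-like cells was 1.01% of that in endothelium-like cells, below the 2.30% that summed epithelial markers reached there relative to epithelium, a measure of free RNA.

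Ccnd2 had another order. It was highest in T cell-like (552 CPM, 424 to 706) and pericyte-like cells (310, 246 to 387), followed by B cell-like (161), phagocyte-like (136), endothelium-like (96.5), NK-like (95.8), undifferentiated stroma-like (77.0) and mesothelium-like cells (55.2). Neighbouring classes from pericyte-like down to mesothelium-like overlapped in their intervals. Epithelium-like cells (6.46 CPM, 33 UMIs) and decidual cells (2.08 CPM, 3 UMIs in 149 cells) stood below all of these.

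Ccnd3 was the evenly spread D-type cyclin. It ran from 123 CPM in T cell-like cells through 79.7 in mesothelium-like, 73.3 in endothelium-like, 71.3 in decidual and 54.8 in undifferentiated cells to 41.7 in NK-like cells, and every class overlapped its neighbour in that order. The exception was epithelium, at 16.8 CPM (13.5 to 20.8), below every other class. The highest class was 7.28-fold above the lowest for Ccnd3, against 99.4-fold for Ccnd1 and 266-fold for Ccnd2.

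**Figure D1:**
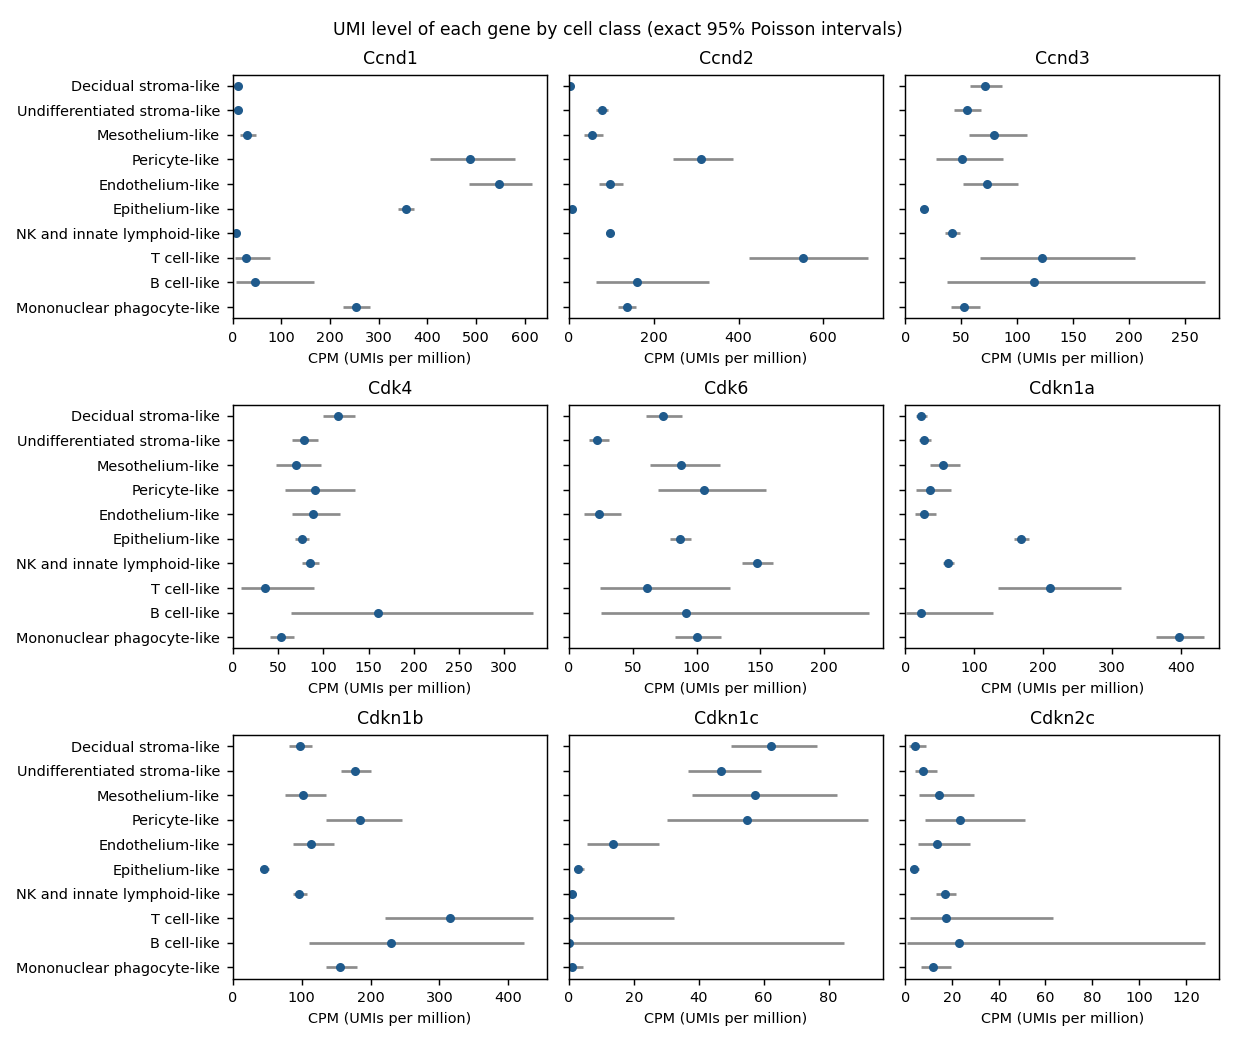
UMI level of the 9 genes (CPM, linear axes that differ between panels) in 10 cell classes of 1 library, with points for the class sum and lines for exact 95% Poisson intervals. Ccnd1 is high in 4 classes and low in 6, Ccnd2 is highest in T cell-like cells, and Cdkn1c is at 47.0 to 62.3 CPM in the stroma, mesothelium and pericytes and has 3 UMIs in NK-like and 1 in phagocyte-like cells.

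The mixture of D-type cyclins therefore differed from class to class. The chemistry counts 3' ends, so UMIs are not scaled by transcript length, and capture may still differ between genes. Ccnd1 made up most D-type cyclin UMIs in epithelium-like (93.9%, 92.7 to 94.9), endothelium-like (76.3%), pericyte-like (57.4%) and phagocyte-like cells (57.2%). Ccnd2 led in T cell-like (78.8%), NK-like (67.0%) and undifferentiated stroma-like cells (53.9%, 47.0 to 60.6), and by 7 of 14 UMIs in B cell-like cells. Ccnd3 led in decidual (85.8%, 78.3 to 91.5) and in mesothelium-like cells (48.8%). Both decidual clusters shared this, with 83.8% in cluster 1 and 90% in cluster 17, against 36.5% and 38.9% in the undifferentiated clusters 5 and 6. The summed D-type cyclin level was lowest in decidual cells, at 83.0 CPM (68.8 to 99.3), and highest in pericyte-like cells, at 848 CPM (739 to 969). The latter interval overlapped those of endothelium-like (718, 647 to 795) and T cell-like cells (701, 556 to 872).

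**Figure D2:**
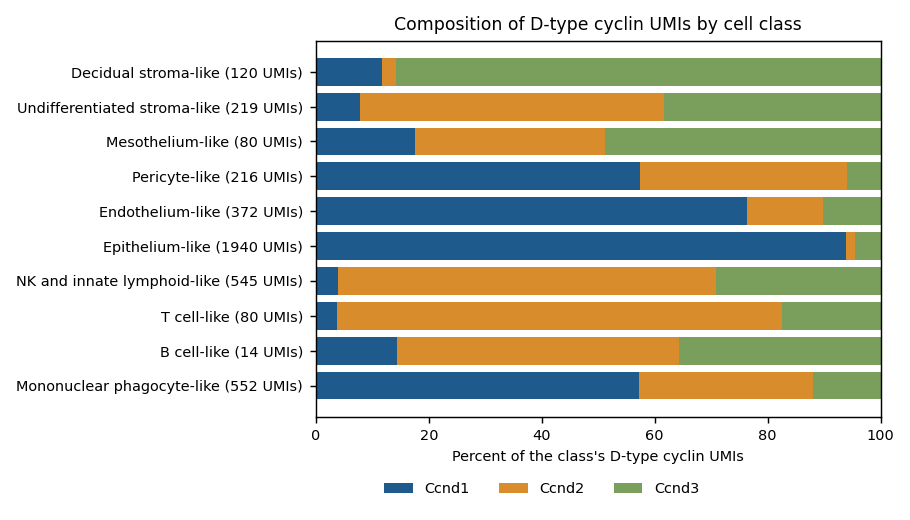
Percent of D-type cyclin UMIs that were Ccnd1, Ccnd2 or Ccnd3 in each of 10 cell classes, with the number of UMIs beside each class. Ccnd1 leads in 4 classes, Ccnd2 in 4 and Ccnd3 in 2, and Ccnd3 holds 85.8% in decidual stroma-like cells.

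The partner kinases were broader. Cdk4 lay between 35.0 CPM in T cell-like cells (4 UMIs) and 161 in B cell-like cells (7 UMIs), with 116 (99.3 to 135) in decidual, 79.0 in undifferentiated, 76.6 in epithelium-like and 52.8 in phagocyte-like cells, and each class overlapped the next. Cdk6 was highest in NK-like cells at 148 CPM (136 to 160) and lowest in endothelium-like (23.2, 12.0 to 40.5) and undifferentiated stroma-like cells (22.2, 15.4 to 31.0). The other 7 classes lay between 61.3 and 106 CPM. The NK-like interval overlapped those of pericyte-like (69.9 to 154) and B cell-like cells (25.0 to 235). Of the UMIs of both kinases Cdk6 took 63.3% (60.0 to 66.5) in NK-like and 65.4% in phagocyte-like cells, against 21.9% (15.7 to 29.3) in undifferentiated stroma and 20.7% in endothelium.

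Among the inhibitors, Cdkn1a, a p53 target that also answers to stress signals, was highest in phagocyte-like cells at 398 CPM (364 to 435), then in T cell-like (210) and epithelium-like cells (169, 158 to 180). The remaining classes were at or below 62.8 CPM, and decidual cells had 22.8. Cdkn1b, often held high in resting cells, ran from 315 CPM in T cell-like, 185 in pericyte-like and 178 (157 to 200) in undifferentiated stroma-like cells to 97.6 (82.1 to 115) in decidual and 45.8 (40.2 to 52.1) in epithelium-like cells. Cdkn1a held most of the Cip/Kip UMIs in epithelium-like (77.6%) and phagocyte-like cells (71.7%), while Cdkn1b led in the other 8 classes.

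Cdkn1c, an imprinted inhibitor gene, was mainly counted in mesenchymal classes. It stood at 62.3 CPM (50.1 to 76.5) in decidual, 57.2 in mesothelium-like, 55.0 in pericyte-like and 47.0 (36.8 to 59.2) in undifferentiated stroma-like cells, all overlapping. Endothelium-like cells had 13.5 CPM and epithelium-like cells 2.74. The 4 immune classes together had 4 UMIs, 3 of them in NK-like and 1 in phagocyte-like cells, while 0 UMIs allows up to 26.3 CPM in T cell-like and 68.9 in B cell-like cells, so the latter class is too shallow to place. Within the undifferentiated stroma, cluster 6 had 55.3 CPM (42.8 to 70.3) and the shallower cluster 5 had 17.8 (6.51 to 38.6). Cdkn2c was sparse, with 141 UMIs in all cells. It reached 20 UMIs only in NK-like cells, at 17.1 CPM (13.2 to 21.8) from 65 UMIs, and was at 3.72 in epithelium-like and 4.15 in decidual cells.

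Each class was also set against all other cells by a size rule: a ratio of at least 2-fold in either direction, at least 50 UMIs over both sides and an interval that excludes 1. Of 90 pairs of gene and class, 17 were higher and 23 lower, which is 18.9% and 25.6%. Over all genes the shares were 11.8% higher and 19.6% lower. Decidual cells had 1 gene higher and 4 lower (all genes 9.47% and 24.7%), undifferentiated stroma 2 and 3 (19.8% and 24.2%), mesothelium 1 and 2 (14.8% and 16.5%) and pericytes 3 and 1 (10.9% and 11.7%). Endothelium had 1 and 2 (13.8% and 15.1%) and epithelium 1 and 5 (11.4% and 27.8%). Phagocytes had 2 and 1 (11.1% and 30.2%), NK-like cells 1 and 3 (11.6% and 34.2%), T cells 3 and 1 (7.92% and 7.72%) and B cells 2 and 1 (6.81% and 3.54%). All 9 genes except Cdk4 met the rule in at least 1 class. Ccnd1 and Cdkn1a met it in 9 and 7 classes, with the lowest ratio, 0.0229, for Ccnd1 in NK-like cells. Ccnd2 was 9.30-fold higher in T cell-like cells, and Cdkn1c 5.90-fold higher in decidual cells.

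Correlation of log2(CPM + 5) over the 20 clusters, which share 1 library and differ in depth, described which genes had the most similar pattern among 8441 genes. Cdkn1c was most like Fhl1 (r = 0.95), Col16a1 (0.94) and Mxra8 (0.94). Cdkn1a was most like Sqstm1 (0.86), Nfkbia (0.85) and Cxcl2 (0.85), and Ccnd1 like Atf3 (0.75), Il13ra1 (0.75) and Fos (0.73). Ccnd2 and Cdkn1b both had Rasa3 among their 3 nearest genes (0.87 and 0.85). Among the 9 genes themselves the closest pair was Ccnd2 and Cdkn2c (0.74), and Cdk4 and Cdkn1a were the most opposed (-0.52). Cdkn2c had 141 UMIs in all, below the 200 asked of the 8441 genes. In the shallow clusters 14, 15 and 18 its level rested on 1 or 2 UMIs, so its correlations carry much counting error.

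Decidual and undifferentiated stroma differed mainly in a cyclin and a kinase. Both decidual clusters had almost no Ccnd2 and more Cdk6, while Ccnd3, Cdk4 and the inhibitors differed less. Ccnd2 had 3 UMIs (3.05 CPM, 0.628 to 8.90) in cluster 1 and 0 in cluster 17, against 71.0 CPM (24 UMIs) in the undifferentiated cluster 5 and 78.7 (94 UMIs) in cluster 6. Against both undifferentiated clusters together, the ratio was 0.0396 (0.00804 to 0.118) for cluster 1. For cluster 17 Ccnd2 was at least 11.8-fold lower, taking the limit of 3 counts for its 0 UMIs. Both decidual clusters lie below both undifferentiated clusters without overlap.

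Cdk6 was at 83.3 CPM (66.2 to 103) in cluster 1 and 52.1 (33.4 to 77.6) in cluster 17, against 17.8 (6 UMIs) and 23.5 (28 UMIs) in the undifferentiated clusters. The ratios were 3.75 (2.49 to 5.77) and 2.35 (1.33 to 4.08), both of which met the size rule. With each cell thinned to 2000 UMIs, which gives cells equal weight, the class ratio of Cdk6 was 2.09 against 3.30 (2.23 to 5.02) unthinned, and it no longer met the rule. By cluster the thinned ratios were 1.76 (0.570 to 4.69) and 2.38 (0.934 to 5.64), with intervals that include 1.

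Cdkn1b was lower in cluster 1, at 85.3 CPM against 178 (ratio 0.480, 0.372 to 0.616). That ratio was 0.552 with no mitochondrial filter, just above the bound of the rule when scaled without mitochondrial genes, and 0.727 (0.402 to 1.23) thinned, so the call was lost under each. Cdkn1b was at 124 CPM in cluster 17 (0.697, 0.514 to 0.930), which did not reach 2-fold. Cdk4 had a ratio of 1.67 (1.29 to 2.16) in cluster 1 and 1.04 (0.706 to 1.52) in cluster 17. Ccnd3 (1.24 and 1.43), Cdkn1a (0.667 and 1.19) and Cdkn1c (1.40 and 1.16) had intervals that include 1 in both clusters. Ccnd1 and Cdkn2c had under 50 UMIs. As a class, 1 of 7 compared genes was higher and 1 lower, where 8.75% of all genes were higher and 18.4% lower. The counts were 1 and 2 for cluster 1 (all genes 10.9% and 22.3%) and 1 and 1 for cluster 17 (4.02% and 20.8%). These comparisons share the undifferentiated cells. Between the decidual clusters 0 of 5 genes met the rule, beside 21.5% of all genes higher in cluster 1 and 6.79% lower; Cdk4 and Cdk6 both had a ratio of 1.60 (1.11 to 2.36 for Cdk4, and a lower bound just above 1 for Cdk6).

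**Figure D3:**
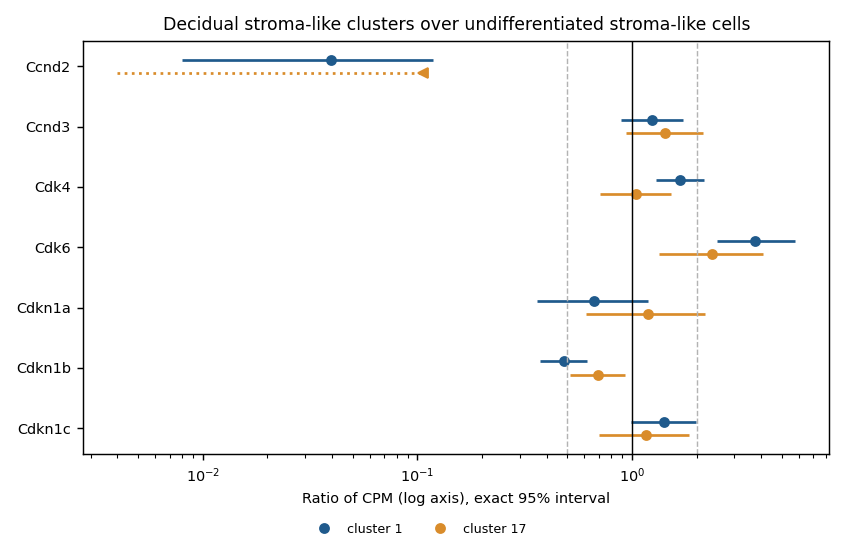
Ratio of CPM in decidual cluster 1 (blue) and cluster 17 (orange) over undifferentiated stroma-like cells on a log axis, with exact 95% intervals, a solid line at 1 and dashed lines at 2-fold. The triangle marks the upper bound for Ccnd2 in cluster 17, which had 0 UMIs; Cdk6 is above 2-fold in both clusters.

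In the rest of the pathway, S phase and mitosis genes were among those higher in decidual cells. Of the E, A and B cyclins and their kinases 3 of 5 compared genes were higher, among them Cks1b, a kinase subunit (7.54-fold, 4.52 to 13.4) and Cks2 (3.32-fold), and 0 lower. In the S phase list 4 of 9 were higher, led by the ribonucleotide reductase subunits Rrm2 (684 against 17.6 CPM, 38.8-fold) and Rrm1 (9.54-fold), and in the G2 and mitosis list 6 of 6, led by Anln (16.6-fold), Cenpe (16.2-fold) and Top2a (14.4-fold). These lists had median log2 ratios of 1.14, 0.52 and 3.60, against -0.31 for all genes. Set directly against cluster 17, cluster 1 was higher in 5 of 5 compared G2 and mitosis genes, among them Mki67 (20.8-fold), Ube2c (12.9-fold), Top2a (6.81-fold) and Cenpf (6.31-fold). It was also higher in 2 of 3 genes of the E, A and B cyclin list, Cks2 (7.95-fold) and Cks1b (7.62-fold), and in 2 of 5 S phase genes, Dut (5.22-fold) and Rrm2 (3.20-fold). Against undifferentiated stroma, of the S phase genes of cluster 17 Rrm2 (15.5-fold) and Rrm1 (7.13-fold) were higher while Mcm7 (0.363) and Dut (0.370) were lower. The remaining lists are given for the whole decidual class against undifferentiated stroma. Of the RB and E2F list E2f8, an atypical E2F, was higher (2.58-fold) while Rb1 (0.300) and E2f5 (0.379) were lower. Among upstream regulators Fbxw7, which marks cyclin E and Myc for turnover, was higher (2.14-fold). Myc (0.398), Foxo3 (0.411) and Foxo1 (0.477) were lower with 1 further gene. By cluster, 0 of 6 compared upstream regulators were higher in cluster 1 and 1 of 6 in cluster 17. In the class the p53 targets Trp53inp1 (0.196), Btg2 (0.266) and Aen (0.434) were lower, 3 of 8 in all.

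Other measures moved with this comparison. The median share of mitochondrial UMIs was 9.83% in cluster 1 and 13.7% in cluster 17, against 7.50% and 3.31% in the undifferentiated clusters 5 and 6. The summed level of 8 early response and heat shock genes (Fos, Jun, Junb, Egr1, Atf3, Ier2, Hspa1a, Hspa1b) was 929 CPM in decidual and 3224 in undifferentiated cells. Across classes the same sum was 10756 CPM in phagocyte-like, 9427 in epithelium-like, 7639 in pericyte-like and 4742 in endothelium-like cells, where Ccnd1 was high. It was 1788 CPM in NK-like cells, where Ccnd1 was low. B cell-like and T cell-like cells had low Ccnd1 with sums of 13530 and 9513 CPM. The part of these measures in the results was not tested.

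Cells were called cycling with at least 3 UMIs from 45 S phase, G2 and mitosis genes after thinning to 2000 UMIs. By this rule 45.0% of decidual cells (36.3 to 54.0, 59 of 131), 62.9% in cluster 1 and 29.0% in cluster 17, were called cycling, against 4.52% of undifferentiated cells (2.49 to 7.46, 14 of 310). Rrm2, which was higher in both decidual clusters, is among the 45 genes, and its weight in the call was not tested. Against undifferentiated stroma, cluster 17 had 2 of 6 compared S phase genes higher and 2 lower. In the G2 and mitosis list 0 genes had enough UMIs to be compared there. By the same call NK-like cells had 55.1% (48.9 to 61.2, 146 of 265), endothelium-like 35.5% (22 of 62), phagocyte-like 27.5% (41 of 149) and epithelium-like 18.7% (62 of 332). A further 122 phagocyte-like cells had under 2000 UMIs and could not be called, 107 of them in cluster 3. T cell-like cells had 42.3% (23.4 to 63.1, 11 of 26), B cell-like 33.3% (3 of 9), pericyte-like 20% (6 of 30) and mesothelium-like 6.25%. Yet against all other cells T cell-like cells had 0 of 24 S phase genes higher and 2 lower. Of their 21 G2 and mitosis genes 0 were higher and 5 lower. In decidual cells not called cycling, the contrast with undifferentiated stroma was close to that in all cells for Ccnd2 (0.0390) and Cdk6 (2.86, 1.73 to 4.80), and Cdkn1c was higher, at 95.3 against 47.3 CPM (2.02-fold, 1.40 to 2.90). Without the cell that held most Cdkn1c UMIs on each side it was 1.57-fold (1.03 to 2.37) and did not meet the rule. With all of these cells 2 of 6 genes were higher and 1 lower, where all genes gave 5.1% and 20.1%.

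Within classes, cycling and other cells differed in few of these genes. Over the 5 classes with at least 20 cells on each side, 2 of 28 pairs of gene and class were higher in cycling cells and 3 lower, beside 5.62% and 3.5% over all genes. By class, all genes gave 6.44% higher and 2.48% lower in decidual cells (the described genes 0 and 1 of 5), 6.98% and 6.78% in endothelium (0 and 0 of 3) and 3.58% and 1.85% in epithelium (0 and 0 of 6). In phagocytes they gave 6.78% and 6.58% (1 and 1 of 7), and in NK-like cells 6.55% and 3.57% (1 and 1 of 7). Cdk4 was higher in cycling NK-like cells, at 108 against 35.1 CPM (3.07-fold, 2.19 to 4.40), and in cycling phagocyte-like cells, at 89.1 against 35.2 (2.53-fold, 1.47 to 4.42). The NK-like ratio was 0.978 (0.387 to 2.53) once each cell was thinned to 2000 UMIs, where every cell has the same weight, 1.60 when cycling was called at 1000 UMIs and 1.72 with the G2 and mitosis list alone. The phagocyte-like ratio was 3.95 thinned, with a wide interval (0.937 to 19.0) that includes 1, 1.99 at 10% mitochondrial UMIs and 1.73 at 2 cycling UMIs. In decidual, epithelium-like and endothelium-like cells no gene with at least 50 UMIs was 2-fold higher. With no mitochondrial filter, however, Cdk6 was 2.41-fold higher (1.60 to 3.75) in cycling decidual cells. Cdkn1b was lower in cycling phagocyte-like cells (84.3 against 189 CPM, ratio 0.445), a ratio that was 0.680 with no mitochondrial filter, 0.727 at 2 cycling UMIs and 0.674 thinned, where it no longer met the rule. Cluster 13 held 24 of the 41 cycling and 45 of the 108 other phagocyte-like cells, and within it the ratio was 0.625 (0.341 to 1.11), while 0 of 5 compared genes met the rule there (all genes 8.31% higher and 7.96% lower). Cluster 3 had 11 cycling cells, too few to compare. Also lower was Cdkn1a in cycling NK-like cells (46.3 against 96.4 CPM, 0.480). The latter ratio did not reach 2-fold under several alternatives, such as doublets kept (0.603), thinning (0.622) and the G2 and mitosis list alone (0.854). Within the NK-like clusters the Cdkn1a ratios were 1.34 (0.788 to 2.41) in cluster 7 and 1.03 (0.685 to 1.52) in cluster 2. In cluster 7 only Cdk4 met the rule, at 2.60-fold higher (1.77 to 3.95), 1 of 7 compared genes (all genes 6.95% higher and 1.02% lower), and in cluster 2 it was 0 of 3 (0.837% and 0.93%).

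Cdkn1c was lower in cycling than in other decidual cells, at 34.6 against 95.3 CPM (0.363, 0.221 to 0.581). In cluster 1 it was at 30.7 against 133 CPM (19 and 46 UMIs, ratio 0.232), and in cluster 17 the ratio was 0.958 (0.338 to 2.40) from 25 UMIs. It was the 1 of 5 compared genes to meet the rule in cluster 1, where all genes gave 4.96% higher and 0.998% lower, and 0 of 1 met it in cluster 17 (2.81% and 7.81%). 1 cell of cluster 1 held 21 of the 90 Cdkn1c UMIs, and without the cell with most of them on each side the class ratio was 0.459. With no mitochondrial filter it was 1.13, and with cells called at 1000 UMIs 1.13, so the direction changed with these settings.

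The NK-like clusters differed from each other in kinases, inhibitors and Ccnd2. Cluster 7 (147 cells, a median of 18510 UMIs) was led by granzyme genes such as Gzmd, Gzmf and Gzme, and cluster 2 (165 cells, 3904 UMIs) by Ifng, Cd7 and Klra4. Cdk6 was at 166 CPM (152 to 181) in cluster 7 against 62.8 (45.4 to 84.6) in cluster 2, 2.65-fold (1.94 to 3.70), but 1.43-fold (1.15 to 1.79) with no mitochondrial filter. Cdk4 was at 98.3 against 27.7, 3.54-fold (2.23 to 5.97). Cdkn1a, Cdkn1b and Ccnd2 were lower in cluster 7. Cdkn1a stood at 32.3 against 202 CPM (0.160, 0.123 to 0.209), Cdkn1b at 70.7 against 215 (0.330, 0.266 to 0.409) and Ccnd2 at 74.6 against 193 (0.387, 0.311 to 0.483). Cdkn2c (2.16, 0.934 to 6.11) had an interval that includes 1, and Ccnd3 (0.675, 0.467 to 0.995) one just below 1. Ccnd1 (8 and 13 UMIs) and Cdkn1c (1 and 2) were too sparse to compare. Of 7 compared genes 2 were higher and 3 lower, beside 16.9% and 14% of all genes.

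Cluster 7 held more cycling cells, 73.4% (65.4 to 80.5) against 33.6% (25.3 to 42.7). In cells not called cycling Cdk6 was 3.47-fold higher (2.30 to 5.40), and Cdkn1a (0.127), Ccnd2 (0.365) and Cdkn1b (0.403) were lower, so 1 of 4 compared genes was higher and 3 lower, beside 11% and 15.7% of all genes. Cdk4 then had 39 UMIs, too few to compare. In cycling cells 2 of 7 were higher and 3 lower (all genes 14.5% and 13.8%), and they were the same genes as in all cells. After thinning to 2000 UMIs Cdk6 (2.93), Cdkn1a (0.116) and Ccnd2 (0.435) kept their side of 2-fold, while Cdk4 was at 1.23 and Cdkn1b at 0.563.

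**Figure D4:**
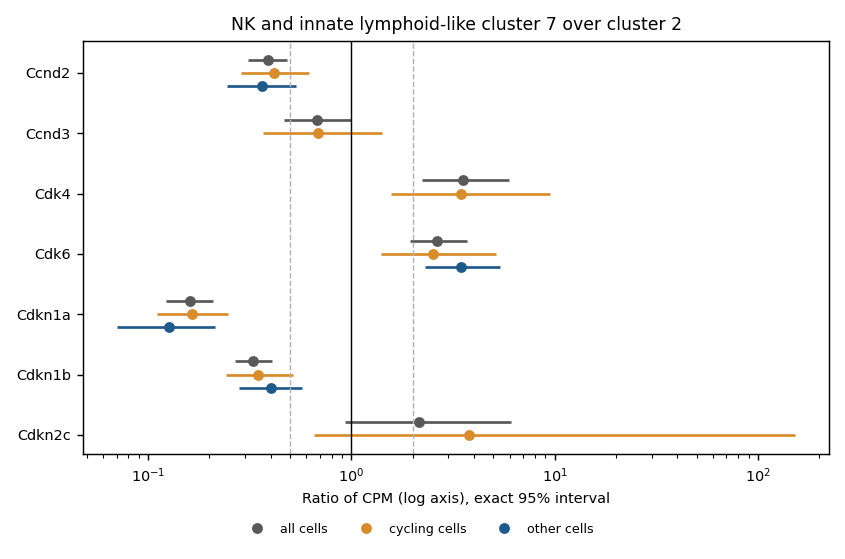
Ratio of CPM in NK and innate lymphoid-like cluster 7 over cluster 2 on a log axis for all cells (grey), cycling cells (orange) and other cells (blue), with exact 95% intervals, for genes with at least 50 UMIs over both sides. Cdk6 is higher and Cdkn1a, Cdkn1b and Ccnd2 are lower in all 3 sets of cells.

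Later cell cycle genes were higher in cluster 7 almost throughout, with 19 of 22 S phase genes, 19 of 19 G2 and mitosis genes and 8 of 9 genes of the E, A and B cyclin list higher and 0 lower. Ccna2, cyclin A, was 24.9-fold higher (6.81 to 207), Cks1b 17.4-fold, Ccnb1, cyclin B1, at least 6.94-fold and Aurkb, a mitotic kinase, at least 9.57-fold. The median log2 ratios were 2.44, 4.17 and 3.12 (2.44, 4.0 and 2.80 with genes at 0 UMIs set to the limit of 3 counts), against 0.01 for all genes. Of the RB and E2F list 3 of 10 were higher, E2f1 (3.56-fold), Tfdp1 (2.57-fold) and E2f3 (2.01-fold). Myc (0.289), Foxo3 (0.376), Ambra1, which takes part in D-type cyclin turnover (0.409), and Foxo1 (0.459) were lower, 4 of 8 upstream regulators. The p53 targets went both ways: Trp53inp1 (0.161) and Btg2 (0.200) were lower, and Aen (3.54-fold) and Bax (2.19-fold) higher. The summed early response and heat shock genes were at 920 CPM in cluster 7 and 5743 in cluster 2, and their part in these differences was not tested.

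In the epithelium, cluster 0 (54 cells), led by the gland genes Spink1, Prss29 and Prss28, stood apart from the other 4 clusters. Ccnd1 was at 73.5 CPM (51.2 to 102) in cluster 0 and at 431 in cluster 8, 243 in cluster 9, 319 in cluster 10 and 356 in cluster 11. Cdkn1a was at 29.4 CPM (16.1 to 49.4) against 218, 247, 73.9 and 163, and Cdk6 at 31.5 (17.6 to 52.0) against 91.1, 117, 76.9 and 119. None of these intervals of cluster 0 overlapped one of the other clusters. Against the 4 clusters together the ratios were 0.191 (0.132 to 0.266) for Ccnd1, 0.161 (0.0875 to 0.271) for Cdkn1a and 0.340 (0.189 to 0.567) for Cdk6, and all 3 were more than 2-fold lower against each of the 4 clusters alone. Against cluster 8, 1 of 5 compared genes was higher and 3 lower (all genes 9.03% and 14.8%), against cluster 9 1 and 3 of 4 (26.7% and 24.9%), against cluster 10 0 and 3 of 5 (8.65% and 13.5%) and against cluster 11 0 and 4 of 5 (9.15% and 23%).

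Cdkn1b was higher in cluster 0, at 84.0 against 41.9 CPM (2.01-fold, 1.39 to 2.83), and so was Ccnd3, at 31.5 against 15.3 (2.05-fold, 1.09 to 3.62, 15 and 71 UMIs). Without the cell that held most of a gene's UMIs on each side these ratios were 1.95 and 1.58, below the 2-fold of the rule. Cdkn1b was 2.37-fold and 2.35-fold higher against clusters 8 and 9 alone, but 1.45-fold (0.945 to 2.21) and 1.67-fold (0.989 to 2.87) against clusters 10 and 11. Ccnd3 was at 1.26 and 1.42 against clusters 10 and 11, with intervals that include 1. Cdk4 had a ratio of 0.552 (0.338 to 0.856). Of 6 compared genes 2 were higher and 3 lower, beside 7.65% and 14.2% of all genes. Ccnd2 (2 and 31 UMIs), Cdkn1c (6 and 8) and Cdkn2c (2 and 17) were too sparse to compare. Ccnd1 made up 67.3% (52.9 to 79.7) of D-type cyclin UMIs in cluster 0 and 91.4% to 96.2% in the other clusters.

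**Figure D5:**
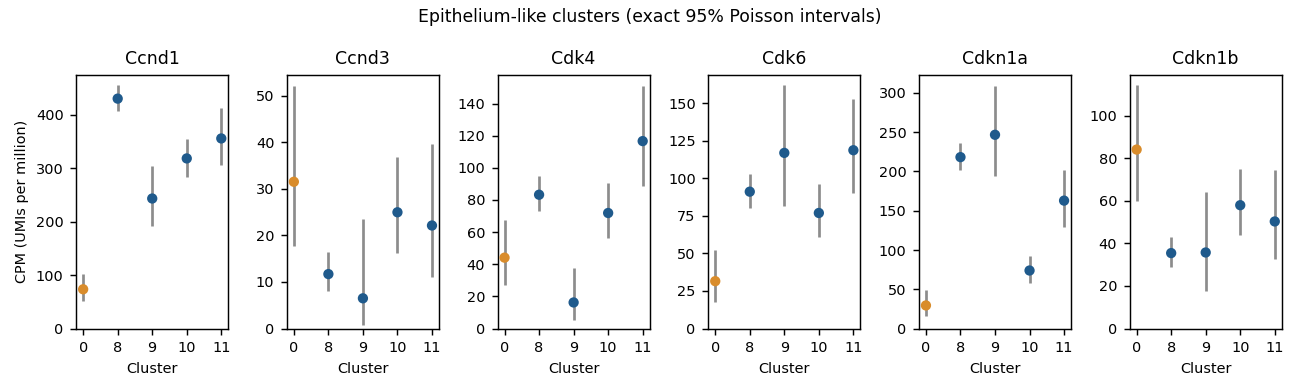
CPM of 6 genes in the 5 epithelium-like clusters, with cluster 0 in orange and exact 95% Poisson intervals as lines (linear axes that differ between panels). Cluster 0 is the lowest for Ccnd1, Cdk6 and Cdkn1a and the highest for Ccnd3 and Cdkn1b.

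Cluster 0 also had few cycling cells, 6.82% (1.43 to 18.7, 3 of 44), against 12.1% to 28.0% in the others. This interval overlapped that of each other epithelium-like cluster, so the share of cycling cells is not called different. Of 12 compared G2 and mitosis genes 10 were lower, Prc1 by at least 4.46-fold and Cenpf with a ratio of 0.0888, and of 17 S phase genes 5 were lower, such as Mcm5 (0.120) and Mcm6 (0.155). In the E, A and B cyclin list 4 of 7 were lower, among them Cdk1, at least 2.98-fold. Tfdp2 (2.63-fold) and Rbl2, a pocket protein of resting cells (2.03-fold), were higher, and Tfdp1 (0.442) was lower. The INK4 gene Cdkn2b was lower, with 1 against 71 UMIs (0.137, 0.00342 to 0.788). Trp53 (0.374), Mycn (0.412) and Foxo1 (0.458) were lower, as were the p53 targets Sesn2 (0.182) and Aen (0.188), while Trp53inp1 was 3.53-fold higher. The summed early response genes were at 8530 CPM in cluster 0 and between 6717 and 11028 in the others.

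Among phagocytes, the macrophage-like cluster 13 (83 cells) and the monocyte-like cluster 3 (166 cells) differed by 2-fold in 1 of these genes, Ccnd3. Their median depths were 5892 and 1466.5 UMIs. Cluster 3 was led by Ly6c2, but also by S100a9 and S100a8 of the neutrophil set and Siglech of the dendritic set. The neutrophil markers summed to 661 CPM in cluster 3 and 16.1 in cluster 13, so cluster 3 may hold other cells beside monocytes. Cdkn1a was at 516 CPM in cluster 13 and 441 in cluster 3, the highest of all clusters, and its ratio of 1.17 (0.975 to 1.41) has an interval that includes 1. Ccnd1 (291 and 188 CPM, 1.55, 1.19 to 2.03) and Cdk6 (138 and 77.8 CPM, 1.77, 1.18 to 2.70) did not reach 2-fold. Neither did Cdkn1b, which was lower in cluster 13 at 116 against 205 CPM (0.565, 0.406 to 0.783), while Ccnd2 (180 and 136 CPM, 1.32, 0.958 to 1.84) and Cdk4 (58.9 and 45.4 CPM, 1.30, 0.729 to 2.36) had intervals that include 1. Cdkn2c (11 and 2 UMIs) and Cdkn1c (0 and 1) were too sparse to compare. Ccnd3 was lower in cluster 13, at 19.6 against 97.3 CPM (0.202, 0.0942 to 0.397), the only 1 of 7 compared genes to meet the rule, where 7.14% of all genes were higher and 12.4% lower. Without the cell that held most of its UMIs on each side it had under 50 UMIs, with a ratio of 0.171. The dendritic-like cluster 4 (22 cells) differed from both in Cdkn1a, with 17.7 CPM from 4 UMIs.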

How the data were processed

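Per the labels' protocols, trypsin released the cells of whole uterus for droplet capture and 3' chemistry. The deposited values are whole UMI counts in a sparse matrix of genes by barcodes, which the authors, per the file headers, made by Cell Ranger 4.0.0. The submitters' processing notes name the build mm10. No annotation release or cell calling setting is stated in the sources used here.

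Barcodes needed at least 500 genes (2382 of 2775 had them) and at most 20% mitochondrial UMIs (2064), and 1825 met both. Scrublet in scanpy 1.11.5 marked 13 (0.712%) as doublets at an expected 5%, which leaves undetected doublets possible, and 1812 cells with 14622717 UMIs remained. Counts were scaled to 10000 per cell and logged. Clusters came from 2000 variable genes (without the 9 genes and the other listed genes), 30 components, 15 neighbours and Leiden resolution 1 (Python 3.11.15, numpy 2.4.6, scipy 1.17.1, igraph 0.11.9). Each cluster took the marker set with the highest mean log2(CPM + 5) relative to the median cluster. Stromal clusters were divided among themselves around the midrange of each marker. This centre was chosen after a median centre had put clusters with Tdo2 near that of undifferentiated stroma into the decidual class under some alternatives, and it changed no name in the clustering reported. A cluster of 35 cells stayed unnamed.

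Counts were summed per group, with exact Poisson intervals for CPM, conditional binomial intervals for ratios and Clopper-Pearson intervals for shares. Cells are not replicates, so no p-value is given, and 1 library cannot show variation between animals. The size rule was checked on simulated counts drawn with counting error alone. That check cannot show how the rule behaves with variation between cells or animals. Of the 9 genes, those with at least 50 UMIs over both sides were compared. Of the other listed genes, up to 4 per list were named, those with the largest ratios among the ones that met the rule. The 9 genes, the lists and the rule were chosen with earlier results of these data known. The comparisons between clusters by number, the splits by cycling within them, the early response genes, the thinning and the leaving out of single cells were chosen after seeing the data.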

Additional observations from a re-analysis of the deposited data

Results flagged for a closer look

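The 963 barcodes that the filters left out held 2226077 UMIs and were used in no comparison under the main settings. The alternatives with no mitochondrial filter or with doublets kept took in part of them. All 9 genes were counted in these barcodes above the 1.35 CPM that a count of 0 allows. Cdk6 stood at 130 CPM (116 to 146) in these barcodes against 94.1 in the kept cells, the only one of the 9 with an interval above the kept level. Ccnd1 was at 91.6 against 180, Ccnd2 at 27.9 against 63.2, Cdk4 at 37.7 against 81.4 and Cdkn1c at 8.98 against 15.7. Ccnd3 was at 41.8 against 42.1, Cdkn1a at 113 against 120 and Cdkn1b at 87.6 against 96.8. Cdkn2c was at 4.04 against 9.64.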

How the results depend on the processing

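No paired analysis was possible because the comparisons lie within 1 library. Over all alternatives 211 counts of genes stayed within 1.5 times the reported count and 38 moved, and 1091 single values stayed within their reported interval, 80 left it in the same direction or without a call and 3 changed direction. The number of classes led by each D-type cyclin was the same under all alternatives run for it. In decidual against undifferentiated stroma the 1 lower gene became 2 at 10% mitochondrial UMIs and at 1.5-fold, and the 1 higher gene became 0 after thinning to 2000 UMIs and 2 in cells not called cycling, where leaving out the cell with most UMIs gave 1 higher and 2 lower. Between the decidual clusters 1.5-fold gave 2 higher genes in place of 0. For cluster 1 the 2 lower genes became 1 with no mitochondrial filter, with scaling without mitochondrial genes and after thinning, and the higher count was 2 at 1.5-fold and 0 after thinning. For cluster 17 thinning left 0 higher, with Cdk6 at 2.38 from fewer UMIs. For NK-like cluster 7 thinning, non-cycling cells and non-cycling cells without that cell each left 1 higher gene of 2. For epithelial cluster 0 the 2 higher genes became 1 with no mitochondrial filter and with scaling without mitochondrial genes, and 0 after thinning (Ccnd3 2.81 and Cdkn1b 2.55, from fewer UMIs) and without the cell with most UMIs. For macrophage-like cluster 13 the higher count was 1 at 10% mitochondrial UMIs and at 1000 genes and 2 at 1.5-fold, while the lower count was 2 at 1.5-fold and 0 after thinning and without that cell. For each class against the rest 1.5-fold gave 27 higher and thinning 11. For cycling cells the higher count was 4 at 20 UMIs and at 1.5-fold, 1 at 2 cycling UMIs and with the G2 list alone, and 0 after thinning. Their lower count was 1 at 10% mitochondrial UMIs, at 2 cycling UMIs and with the G2 list, 5 at 1.5-fold, and 0 with no mitochondrial filter and after thinning. 3 ratios changed direction: Cdkn1c in cycling decidual cells (1.13 with no mitochondrial filter, 1.13 with cycling called at 1000 UMIs) and Cdk4 in cycling NK-like cells (0.978 thinned). The causes were not tested. At 10% mitochondrial UMIs 49 decidual cells remained, against 304 with no such filter, and cluster 17 could not be matched there. Thinning keeps 2000 UMIs per cell, so fewer genes reach 50 UMIs.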
